A study of Mus musculus with 11 samples.

Results

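Well-expressed predicted Gm loci were examined in BV2 cells, a line of mouse microglia, given short N-terminal pieces of apolipoprotein E. A locus was taken when its symbol was Gm followed by a number, 4 loci that the selection leaves out excepted, and was selected on its measured level, with a mean of 10 CPM (counts per 1000000 reads on genes of a library) or more in at least 1 of 4 groups. This gave 100 of the 9909 Gm loci that could have been taken, out of 36529 genes listed. The groups were 3 samples given nApoE4 (1–151) and their 3 untreated controls, and, in a second experiment, 2 samples given nApoE3 (1–151) and 3 untreated controls of their own. Each fragment holds residues 1 to 151 with a His tag and was added at 25 μg/ml for 5 h, and the fragments differ at a single residue, an arginine in nApoE4 and a cysteine in nApoE3. BV2 cells came from C57BL/6 mice and all 4 groups are the same transformed line, so no group stands for primary microglia. The sample labels name a PBS vehicle for the controls while the methods of the study name conditioned media, and which was used is not known. The labels do not say whether replicates were separate cultures, although the study speaks of independent trials, and the p-values measure only the spread between these samples. Each fragment has its own experiment and its own controls, so an effect of the fragment cannot be told apart from one of the experiment.

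A Gm symbol is a placeholder that mouse nomenclature gives to a gene model predicted from sequence or transcripts before its product is known. The class mixes long non-coding RNAs (lncRNAs), which are transcribed and often spliced but not translated, with zinc finger genes, pseudogenes and coding genes that have since been renamed. Many lncRNAs lie close to, or on the opposite strand of, a coding gene. In microglia and macrophages, signals from bacteria and interferons raise a large set of coding genes, among them the immunity-related GTPases that act on vesicles holding microbes, and some lncRNAs beside such genes.

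The libraries held 39732710 to 44162511 reads on genes in the nApoE4 experiment and 55809688 to 69768666 in the nApoE3 experiment, so that 3 counts equal 0.0430 to 0.0755 CPM. Reads that fell on more than 1 gene made up 3.24 to 3.56% of all reads tallied and were counted on none, and reads that aligned to more than 1 place made up 11.7 to 13.2%. Of 10 microglial markers, 6 were at 1 CPM or more in every sample, among them Csf1r and Tmem119, while Aif1 and Cx3cr1 were under 1 CPM and P2ry12 was at 0 in every sample. The 4 fibroblast markers and the 4 T and B cell markers were under 1 CPM in every sample. Untreated replicate 2 of the nApoE4 experiment stood apart from the other untreated samples of that experiment, with a chi-square per degree of freedom over genes of 25.8 and 47.9 against them, where they differed from each other by 7.85. Counts of loci and the results of Gm8995 and Gm12610 are therefore also given without it, and of the other named loci only the calls it changed.

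The 100 loci were unevenly spread over the groups. The level of 10 CPM was reached in all 4 groups by 35 loci, in 3 groups by 7, in 2 groups by 33 and in 1 group by 25. Both groups of the nApoE4 experiment and neither of the other experiment passed for 14 loci, and the reverse held for 7. Both treated groups alone passed for 6 loci and both untreated groups alone for 5. The loci together took 1949 to 2120 CPM in the untreated and 2010 to 2322 CPM in the treated samples of the nApoE4 experiment, and these ranges overlapped. In the nApoE3 experiment they took 1750 to 1778 CPM untreated and 2161 to 2186 CPM treated, without overlap. Without Gm8995 and Gm41912, picked after seeing the values, the other 98 loci took 1433 to 1481 CPM untreated and 1433 to 1444 CPM treated in that experiment, and 1905 to 2056 CPM untreated and 1833 to 2135 CPM treated in the nApoE4 experiment, and these ranges overlapped. Just inside the threshold stood Gm6712, Gm7160 and Gm14164, with a highest group mean of 10.2, 10.1 and 10.0 CPM. Just outside stood Gm36117, Gm38396 and Gm38469, at 9.92, 9.76 and 9.70 CPM. These levels chose the loci and are a description.

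An annotation of the same genome build, GRCm38.p6, gave a position for 90 loci, of which 76 matched by symbol, 13 by an older symbol and 1 in a second annotation. It classed 54 as lncRNA, 30 as protein-coding, 4 as pseudogenes, 1 as a processed transcript and 1 as another RNA, and 10 loci were not matched. Chromosome 2 held 16 of the 90. Several loci now carry a name. Gm17296 is Tarbp1, a tRNA methyltransferase, and Gm15800 is Hectd4, a large protein of the HECT ubiquitin ligase family. Gm14005 is Morrbid, an lncRNA known for controlling the life span of myeloid cells, and Gm20071 is Brd3os. Gm13139, Gm13157, Gm4944 and Gm22 are the zinc finger genes Zfp991, Zfp984, Zfp994 and Zfp469. Gm14680 (Sms-ps) is a pseudogene of spermine synthase and Gm5601 (Ppp1ccb) a copy of a phosphatase subunit gene, and reads of such copies cannot be assigned with certainty.

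The first question was how each fragment moved these loci against its own untreated controls. Tests are given for the 35 loci that reached 10 CPM in all 4 groups, since a locus that reached it in some groups only had in many cases to differ. These 35 cannot include a locus that fell from above 10 to below it. After nApoE4, 15 of the 35 passed an adjusted p under 0.05 in edgeR's quasi-likelihood test, 8 higher and 7 lower, where 57.2% of all genes tested passed, 28.6% higher and 28.6% lower. After nApoE3, 27 of the 35 passed, 16 higher and 11 lower, where 67.7% of all genes passed, 33.1% higher and 34.6% lower. Among the other genes at 10 CPM or more in all 4 groups, 59.9% passed after nApoE4 and 80.7% after nApoE3, beside 42.9% and 77.1% of the 35 loci. The median log2 fold change of the 35 loci was 0.07 after nApoE4 and 0.11 after nApoE3, and that of all genes was 0.0013 and −0.0026. Without untreated replicate 2 of the nApoE4 experiment, 16 of the 35 (45.7%) passed after nApoE4, beside 60.6% of all genes and 67.0% of the other genes at 10 CPM or more in all 4 groups. The nApoE4 response of Gm15800 passed then, at −0.30. Over all 100 loci, 66 passed after nApoE4 and 80 after nApoE3, counts that the choice of the loci helped to set.

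**Figure D1:**
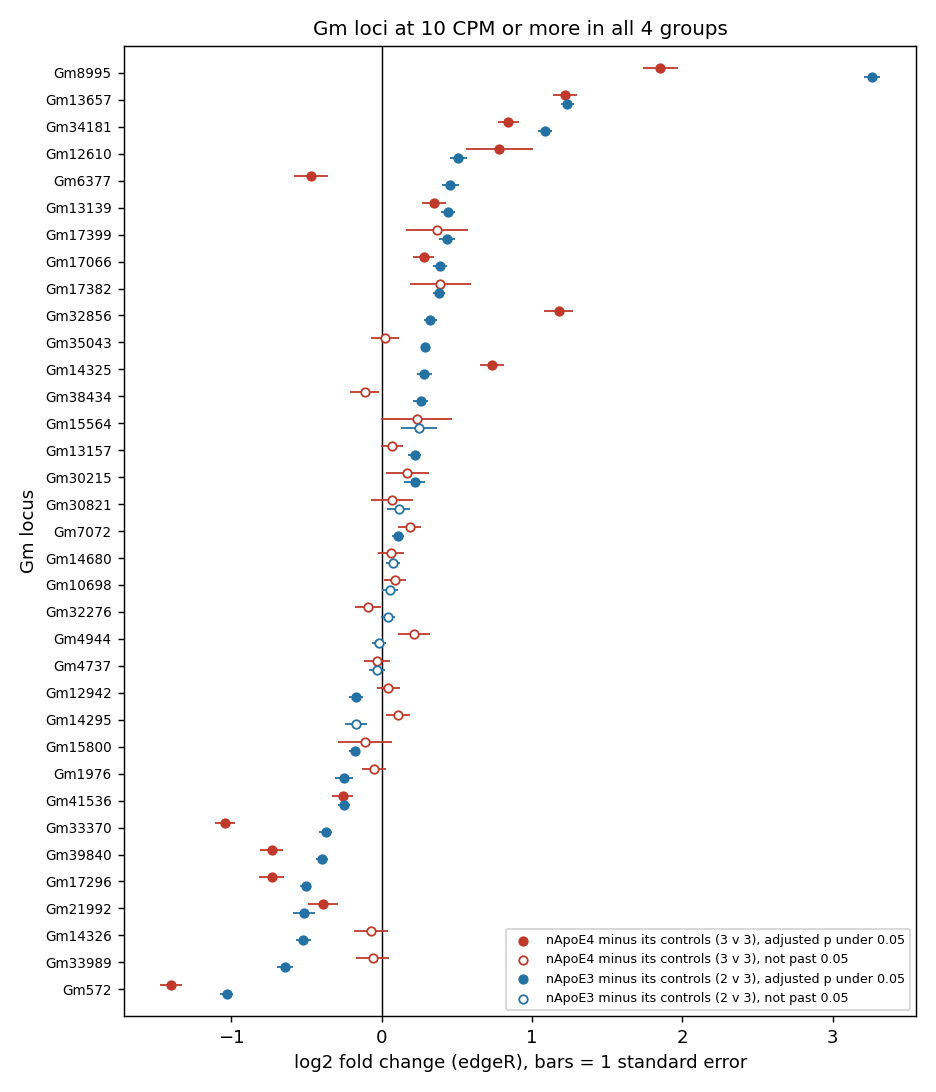
Log2 fold change (horizontal axis) of each of the 35 Gm loci at 10 CPM or more in all 4 groups (vertical axis), with red points for nApoE4 (3 samples against 3) and blue points for nApoE3 (2 against 3). Bars are 1 standard error and filled points passed an adjusted p under 0.05. Gm8995 lies farthest to the right for both fragments and Gm572 farthest to the left, and Gm6377 is the locus whose filled points lie on opposite sides of 0.

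Set side by side, 8 of the 35 loci were past the threshold and higher with both fragments, 6 were lower with both, and 1, Gm6377, was lower with nApoE4 and higher with nApoE3. A further 7 were higher and 5 lower with nApoE3 alone, and 8 passed with neither fragment. With nApoE3 alone, the log2 fold changes ran from 0.11 in Gm7072 to 0.43 in Gm17399 among the former and from −0.17 in Gm12942 to −0.64 in Gm33989 among the latter. The rise of Gm7072 appears only after the scaling of libraries (TMM). Its unscaled mean CPM with nApoE3 was 0.986 times that of the untreated samples. The 8 that passed with neither were Gm10698, Gm14295, Gm14680, Gm15564, Gm30821, Gm32276, Gm4737 and Gm4944. Of the 12 loci that passed with nApoE3 alone, the difference between the responses itself passed for 3, Gm38434, Gm14326 and Gm33989. Of the 12 loci annotated as lncRNA, 3 rose and 2 fell after nApoE4, and 6 rose and 3 fell after nApoE3. Of the 16 annotated as protein-coding, 3 rose and 4 fell after nApoE4, and 6 rose and 7 fell after nApoE3.

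Of the 35 loci, Gm8995 showed the largest rise with each fragment. It lies at chr7:106502153-106529202 on the minus strand, is annotated as an RNA of no further class, and is placed between Gvin1, an interferon-induced very large GTPase gene, and Gm1966. Its levels were 56.2, 40.4 and 60.7 CPM in the untreated and 172, 182 and 178 CPM in the nApoE4 samples. In the second experiment they were 41.1, 45.7 and 49.5 CPM untreated and 407 and 387 CPM with nApoE3. No treated sample came near an untreated one. The log2 fold change was 1.85 ± 0.12 (SE, adjusted p = 6.86e-07) with nApoE4 and 3.26 ± 0.05 (adjusted p = 1.15e-13) with nApoE3. The nApoE4 response was smaller by a log2 difference of −1.42 ± 0.15 (adjusted p = 1.84e-05), while the untreated groups differed by −0.16 (adjusted p = 0.294), or by −0.30 (adjusted p = 0.00235) without untreated replicate 2 of the nApoE4 experiment. Without that replicate the log2 fold change with nApoE4 was 1.71.

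Other loci of this stretch and the immunity-related GTPases were then compared, the former chosen after the values were seen. Gvin1 rose by 2.75 and 3.27 on the log2 scale with nApoE4 and nApoE3, and Gm4070, not among the 100 loci, by 2.23 and 3.02. Gm1966 had log2 fold changes of −0.0082 and 0.42, neither past the threshold. Very large GTPase genes are similar in sequence. Reads that aligned to more than 1 place were tallied apart from the genes, so the counts of such copies may miss reads. Of 7 immunity-related GTPase genes, 4 of the 5 tested rose and 1 (Irgc1) fell after nApoE4, and 4 of 4 tested rose after nApoE3. Of all genes tested, 28.6% were called higher after nApoE4 and 33.1% after nApoE3. Irgc1 went from only 0.333 to 0.0884 CPM with nApoE4. Iigp1 was at 0 CPM untreated and 0.505 CPM with nApoE4, so it could be tested there only through the treated samples. Irgm1, which acts in the clearance of microbes inside cells, rose by 1.91 and 3.41, and its responses differed by −1.51 (adjusted p = 1.65e-04). Of the 5 genes tested for this difference, 3 passed, each with a lower nApoE4 response, where 28.3% of all genes passed. That of Iigp1 was 1.93 and did not pass.

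The lncRNA Gm13657 (chr2:75776865-75791277) rose to nearly the same degree with each fragment. It stood at 16.1, 13.4 and 15.003 CPM untreated and at 29.8, 33.2 and 34.3 CPM with nApoE4. In the second experiment it stood at 22.4, 21.3 and 22.9 CPM untreated and at 46.5 and 48.9 CPM with nApoE3. Treated and untreated samples did not overlap in either experiment. These were log2 fold changes of 1.22 ± 0.08 (adjusted p = 8.0e-07) and 1.24 ± 0.04 (adjusted p = 5.28e-11), and their difference of −0.03 ± 0.09 did not pass.

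The lncRNA Gm34181 (chr2:144337444-144344664) gave 13.8, 11.6 and 13.1 CPM untreated and 21.3, 22.4 and 21.2 CPM with nApoE4. In the second experiment the values were 10.0, 10.3 and 10.2 CPM untreated and 19.2 and 20.2 CPM with nApoE3. Each treated sample was above each untreated one of its experiment. This gave log2 fold changes of 0.84 ± 0.07 (adjusted p = 7.0e-06) and 1.08 ± 0.05 (adjusted p = 6.3e-10). Their difference, −0.25 ± 0.08 (adjusted p = 0.0359), was lost when any sample but untreated replicate 2 or 3 of the nApoE4 experiment was left out. The nearest genes within 50 kb, Ovol2 and Pet117, were under 1 CPM in every group.

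Gm32856, annotated as protein-coding at chr8:129263392-129286569, differed more between the experiments. It was at 21.7, 16.9 and 22.7 CPM untreated and 39.3, 45.8 and 44.9 CPM with nApoE4, against 40.1, 39.1 and 35.9 CPM untreated and 43.5 and 44.3 CPM with nApoE3. The untreated cells of the nApoE3 experiment thus stood near the level of the cells given nApoE4. The log2 fold change was 1.18 ± 0.10 (adjusted p = 4.87e-06) with nApoE4 and 0.32 ± 0.04 (adjusted p = 2.84e-05) with nApoE3, a difference of 0.84 ± 0.12 (adjusted p = 1.99e-04). The untreated groups differed by 0.95 ± 0.09 (adjusted p = 3.32e-05).

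Gm12610 (chr4:89295180-89518621) carries the synonym ANRIL, the lncRNA named for its place opposite the cell cycle inhibitor genes at Cdkn2a and Cdkn2b. It was at 27.8, 15.01 and 33.1 CPM untreated and 35.1, 48.1 and 38.9 CPM with nApoE4, and at 15.9, 15.4 and 14.2 CPM untreated and 19.1 and 20.4 CPM with nApoE3. The low untreated value of 15.01 CPM was that of the replicate that stood apart, without which the nApoE4 fold change below was 0.53 (adjusted p = 0.00153). The log2 fold changes were 0.78 ± 0.22 (adjusted p = 0.0136) and 0.51 ± 0.05 (adjusted p = 3.03e-06). The nApoE4 call was lost without treated replicate 2, at 0.65 (adjusted p = 0.0584), and the nApoE3 call in a joint fit of the 11 samples (adjusted p = 0.0575). Cdkn2a, 561 bases away, did not pass in either experiment (log2 fold changes of 0.05 and −0.01), and Cdkn2b was at 0 in every group.

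Of the remaining risers, Gm14325 lies in a stretch of chromosome 2 (chr2:177828991-177840336) that holds related zinc finger genes. It gave 18.4, 20.9 and 20.01 CPM untreated and 30.5, 29.7 and 32.7 CPM with nApoE4, a log2 fold change of 0.74 ± 0.08 (adjusted p = 3.59e-05). With nApoE3 the log2 fold change was 0.28 ± 0.05 (adjusted p = 2.42e-04). Its neighbours in that stretch gave other values. Gm14326 had a log2 fold change of −0.07 with nApoE4, which did not pass, and fell by 0.52 with nApoE3 (adjusted p = 9.68e-07), and Gm14295 passed with neither. Gm13139 (Zfp991) rose by 0.35 and 0.44, and the processed transcript Gm17066 by 0.28 and 0.39.

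Of the 35 loci, Gm572 showed the largest fall with each fragment. It is annotated as protein-coding at chr4:148643317-148677105. Its levels were 32.6, 32.8 and 33.2 CPM untreated and 11.01, 12.8 and 11.3 CPM with nApoE4, and 38.7, 39.1 and 41.3 CPM untreated and 17.9 and 17.6 CPM with nApoE3. The untreated values were 2.81 times those with nApoE4 and 2.24 times those with nApoE3. The log2 fold changes were −1.40 ± 0.07 (adjusted p = 1.66e-07) and −1.03 ± 0.04 (adjusted p = 5.64e-10), and the fall with nApoE4 was larger by −0.38 ± 0.08 (adjusted p = 0.00404). Tardbp, 16233 bases away, had log2 fold changes of −0.10 and 0.12.

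The lncRNA Gm33370 (chr5:96910270-96922149) fell from 25.8, 23.6 and 24.6 CPM to 11.7, 10.98 and 11.1 CPM with nApoE4, and from 22.5, 23.8 and 23.8 CPM to 16.7 and 16.3 CPM with nApoE3. The untreated groups did not differ past the threshold (log2 difference −0.03 ± 0.05, adjusted p = 0.561). The log2 fold changes were −1.04 ± 0.07 (adjusted p = 1.03e-06) and −0.37 ± 0.05 (adjusted p = 1.28e-05), with a difference of −0.68 ± 0.08 (adjusted p = 3.16e-05).

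The lncRNA Gm39840 (chr2:69121478-69130075) fell from 23.1, 21.6 and 23.2 CPM to 13.4, 11.8 and 13.2 CPM with nApoE4, and from 24.4, 24.5 and 24.2 CPM to 16.7 and 16.98 CPM with nApoE3. They amounted to log2 fold changes of −0.73 ± 0.08 (adjusted p = 2.77e-05) and −0.40 ± 0.04 (adjusted p = 2.04e-06). Its flanking genes moved in different directions. Cers6, which encodes a ceramide synthase and lies 7194 bases away, rose from 103 to 414 CPM and from 121 to 315 CPM, and Nostrin, 5725 bases away on the other side, fell by 0.22 and 0.82 on the log2 scale.

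Gm17296, the tRNA methyltransferase gene Tarbp1, gave 63.1, 50.7 and 66.7 CPM untreated and 34.0, 34.1 and 33.8 CPM with nApoE4. In the second experiment it gave 85.4, 83.1 and 79.3 CPM untreated and 53.7 and 52.6 CPM with nApoE3. It fell by 0.73 (SE 0.08, adjusted p = 4.52e-05) and by 0.50 (SE 0.04, adjusted p = 6.82e-08) on the log2 scale. Coa6, whose annotated span overlaps it, fell by 0.56 and 0.52. Without the strand setting of the counting, reads from overlapping genes cannot be told apart.

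Gm21992 carries the synonym Rbm14-rbm4, a readthrough of 2 adjacent RNA-binding protein genes. It fell by 0.39 (SE 0.10, adjusted p = 0.00788) with nApoE4 and by 0.52 (SE 0.07, adjusted p = 4.35e-05) with nApoE3. Rbm14 and Rbm4, whose spans lie within it, were listed at 0 in every sample. Reads of the readthrough and of the single genes cannot be told apart. Gm41536, which has no position here, fell by 0.26 and 0.25.

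Gm6377, annotated as protein-coding on chromosome X (chrX:109196756-109200445), moved in opposite directions. It fell from 15.2, 18.6 and 16.5 CPM to 10.0, 11.6 and 12.6 CPM with nApoE4, and rose from 11.9, 11.7 and 13.2 CPM to 15.6 and 15.2 CPM with nApoE3. Treated and untreated samples did not overlap in either experiment, and the treated level of each experiment lay near the untreated level of the other. The log2 fold changes were −0.47 ± 0.11 (adjusted p = 0.00607) and 0.46 ± 0.06 (adjusted p = 1.71e-05). The difference was −0.94 ± 0.15 (adjusted p = 3.71e-04), and the untreated groups differed by −0.41 ± 0.10 (adjusted p = 0.00591).

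**Figure D2:**
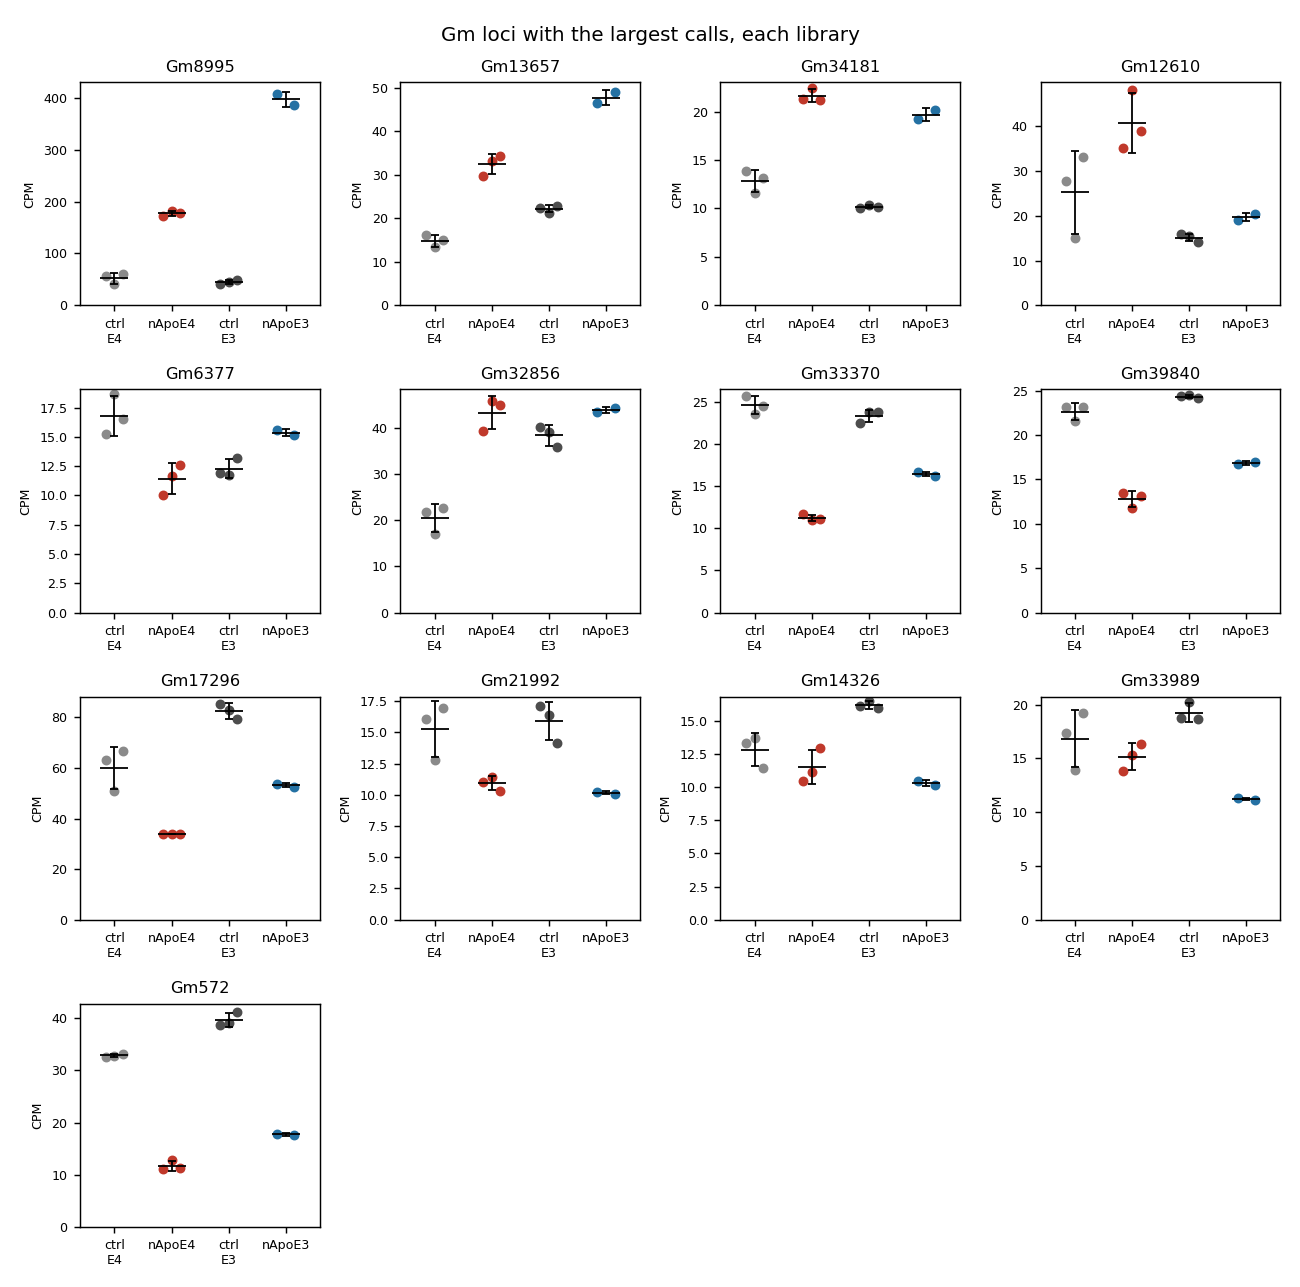
CPM (vertical axes, linear and from 0) of the 13 loci with the largest called changes in each fragment comparison, in the untreated controls (grey) and samples given nApoE4 (red) or nApoE3 (blue). Points are libraries, and black bars are the mean and SD (n = 3, 3, 3 and 2). Gm8995 reaches 407 CPM with nApoE3 and at most 182 CPM with nApoE4, while Gm6377 goes down in one experiment and up in the other.

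The second question was whether the fragments differed in their effect. Of the 35 loci, 11 passed for the difference between the responses, 4 with a higher and 7 with a lower nApoE4 response, where 28.3% of all genes tested passed. Among the other genes at 10 CPM or more in all 4 groups, 34.6% passed, beside 31.4% of the 35 loci. Without untreated replicate 2 of the nApoE4 experiment, 13 of the 35 (37.1%) passed, beside 33.9% of all genes and 44.4% of the other genes at that level. The differences of Gm17296 (−0.33) and Gm12942 (0.27) then passed too. Gm33989, a protein-coding locus on chromosome 7, fell with nApoE3 by 0.64 (SE 0.05, adjusted p = 2.7e-07). It was at 18.8, 20.3 and 18.7 CPM untreated and 11.3 and 11.2 CPM with nApoE3, while the nApoE4 experiment gave overlapping values of 13.9 to 19.2 CPM untreated and 13.8 to 16.4 CPM treated. The difference between its responses was 0.57 ± 0.13 (adjusted p = 0.00577).

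The third comparison set the 2 groups of untreated controls against each other. Here 27 of the 35 loci passed, 18 higher and 9 lower in the nApoE3 experiment, where 69.3% of all genes tested passed. Among the other genes at 10 CPM or more in all 4 groups, 73.4% passed. Without untreated replicate 2 of the nApoE4 experiment, 30 of the 35 (85.7%) passed, beside 74.5% of all genes and 83.3% of the other genes at that level. Beside that of Gm8995, the control differences of Gm33989 and Gm14325 also passed then, at 0.14 each. That of Gm33989 passed under other settings too. It was 0.33 without untreated replicate 3 of the nApoE4 experiment, and 0.25 both with DESeq2 and in a joint fit of the 11 samples. The lncRNA Gm30215 (chr6:140680185-140826797) was at 67.8, 76.5 and 59.4 CPM in the untreated cells of the nApoE4 experiment and at 12.5, 11.8 and 13.9 CPM in those of the nApoE3 experiment (log2 difference −2.38 ± 0.12, adjusted p = 1.47e-06). Aebp2, a gene for a Polycomb cofactor 1713 bases away, went from 95.8 to 137 CPM between the same groups. The lncRNA Gm30821 on chromosome 18 was at 343, 387 and 387 CPM in the first and at 63.5, 77.0 and 73.3 CPM in the second (log2 difference −2.35 ± 0.09, adjusted p = 5.26e-07). Neither fragment moved Gm30821 past the threshold (log2 fold changes of 0.07 and 0.11). Gm38434 and Gm4737 were also lower in the second experiment, by −1.05 and −0.70, and Gm17382, Gm32856, Gm41536 and Gm4944 (Zfp994) were higher by 0.96, 0.95, 0.93 and 0.78.

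Over all 100 loci the untreated groups differed by a median size of 0.69 on the log2 scale, where the median size of the responses was 0.49 for nApoE4 and 0.42 for nApoE3. Over all genes tested in every comparison these medians were 0.41, 0.34 and 0.32. Over the 35 loci at 10 CPM or more in all 4 groups they were 0.37, 0.23 and 0.29. The larger median between the controls thus did not hold for these 35. In 50 of the 100 loci, and in 17 of the 35, the difference between the controls was larger than both responses, beside 45.3% of all genes. It was larger than 2 on the log2 scale in 10 of the 100 loci and in 2 of the 35. The same held for 3.27% of all genes and for 1.5% of the other genes at 10 CPM or more in some group. The level threshold of the selection acts on the same group means, so these sizes are given with no test.

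**Figure D3:**
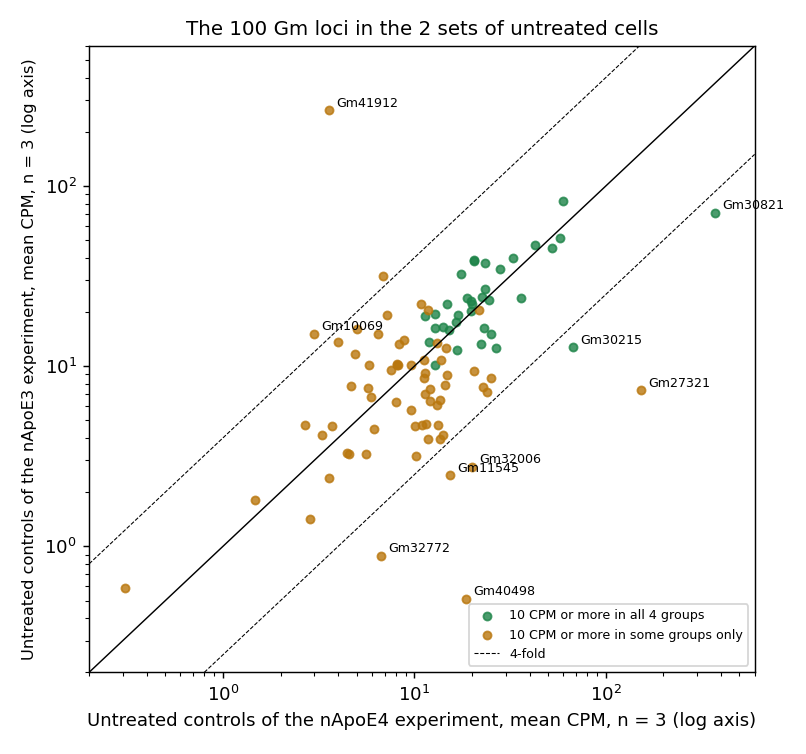
Mean CPM of the 100 Gm loci in the untreated controls of the nApoE4 experiment (horizontal, log axis, n = 3) and of the nApoE3 experiment (vertical, log axis, n = 3). The solid line marks equal levels and the dashed lines a 4-fold difference. Gm41912 lies far above the upper dashed line, and Gm27321, Gm40498, Gm30821 and Gm30215 lie below the lower one.

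The 65 loci that reached 10 CPM in some groups only are described by their values. Gm41912, an lncRNA on chromosome 1, gave 3.40 to 3.78 CPM untreated and 4.65 to 6.57 CPM with nApoE4, against 251 to 271 CPM untreated and 335 and 342 CPM with nApoE3. The untreated mean was 73.6 times as high in the nApoE3 experiment. Gm27321, annotated as an lncRNA, gave the reverse, at 138 to 174 CPM untreated and 130 to 147 CPM with nApoE4, against 6.66 to 7.75 CPM untreated and 6.77 and 7.46 CPM with nApoE3. Gm40498, which has no position here, stood at 16.7 to 20.2 CPM in the untreated cells of the nApoE4 experiment and at 0.484 to 0.530 CPM in those of the nApoE3 experiment. These 3 loci were the ones with more than 4 on the log2 scale between the controls, and in each the means of treated and untreated cells of an experiment were less than 2-fold apart. Gm32772 and Gm11545 were also higher in the nApoE4 experiment, with untreated means of 6.70 and 15.4 CPM against 0.887 and 2.49 CPM. Unlike the 3 loci above, they were more than 2-fold apart between treated and untreated cells with nApoE4. The mean of Gm32772 was 2.38 times the untreated one with nApoE4 and 1.59 times with nApoE3. The untreated mean of Gm11545 was 2.29 times that with nApoE4 and 1.48 times that with nApoE3.

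Another group of these loci followed the treatment in both experiments. Gm39785, which has no position here, gave 4.15, 2.40 and 4.23 CPM untreated and 40.8, 53.0 and 41.0 CPM with nApoE4, and 2.39, 2.32 and 2.49 CPM untreated and 24.3 and 25.9 CPM with nApoE3. That is 12.5 and 10.4 times the untreated mean. Gm41235 gave 0.272 to 0.352 CPM untreated and 2.59 to 3.35 CPM with nApoE4, and 0.474 to 0.735 CPM untreated and 11.4 and 12.2 CPM with nApoE3. Gm42362 went from 3.45 to 4.21 CPM to 15.02 to 16.1 CPM with nApoE4 and from 4.33 to 5.12 CPM to 12.04 and 13.7 CPM with nApoE3. Morrbid (Gm14005) gave 6.34 to 8.31 CPM untreated and 11.4 to 14.0 CPM with nApoE4, and 9.18 to 9.91 CPM untreated and 12.7 and 13.3 CPM with nApoE3.

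Some loci moved mainly or more strongly in one experiment, or fell. Brd3os (Gm20071) gave 3.86 to 4.82 CPM untreated and 10.7 to 11.9 CPM with nApoE4, but 2.81 to 3.93 CPM untreated and 2.25 and 2.40 CPM with nApoE3. Brd3 itself, 1355 bases away, fell in both experiments, by 0.34 and 0.67 on the log2 scale. The pseudogene Gm15433 was higher in the treated cells of both experiments, at 4.12 times the untreated mean with nApoE4 and 2.07 times with nApoE3. It gave 2.46 to 3.19 CPM untreated and 11.2 to 12.01 CPM with nApoE4, against 1.36 to 1.54 CPM and 2.83 and 3.07 CPM in the nApoE3 experiment. Gm32006 gave 12.3 to 26.1 CPM untreated and 3.50 to 4.21 CPM with nApoE4, and 2.39 to 3.22 CPM untreated and 1.02 and 1.03 CPM with nApoE3. Its span overlaps Mlycd, which fell by 0.39 and 0.86, and Osgin1, which fell by 0.67 with nApoE4 and rose by 0.59 with nApoE3. Gm14321 went from 11.4 to 14.98 CPM to 4.65 to 5.73 CPM with nApoE4 and from 4.14 to 5.45 CPM to 1.85 and 1.92 CPM with nApoE3.

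**Figure D4:**
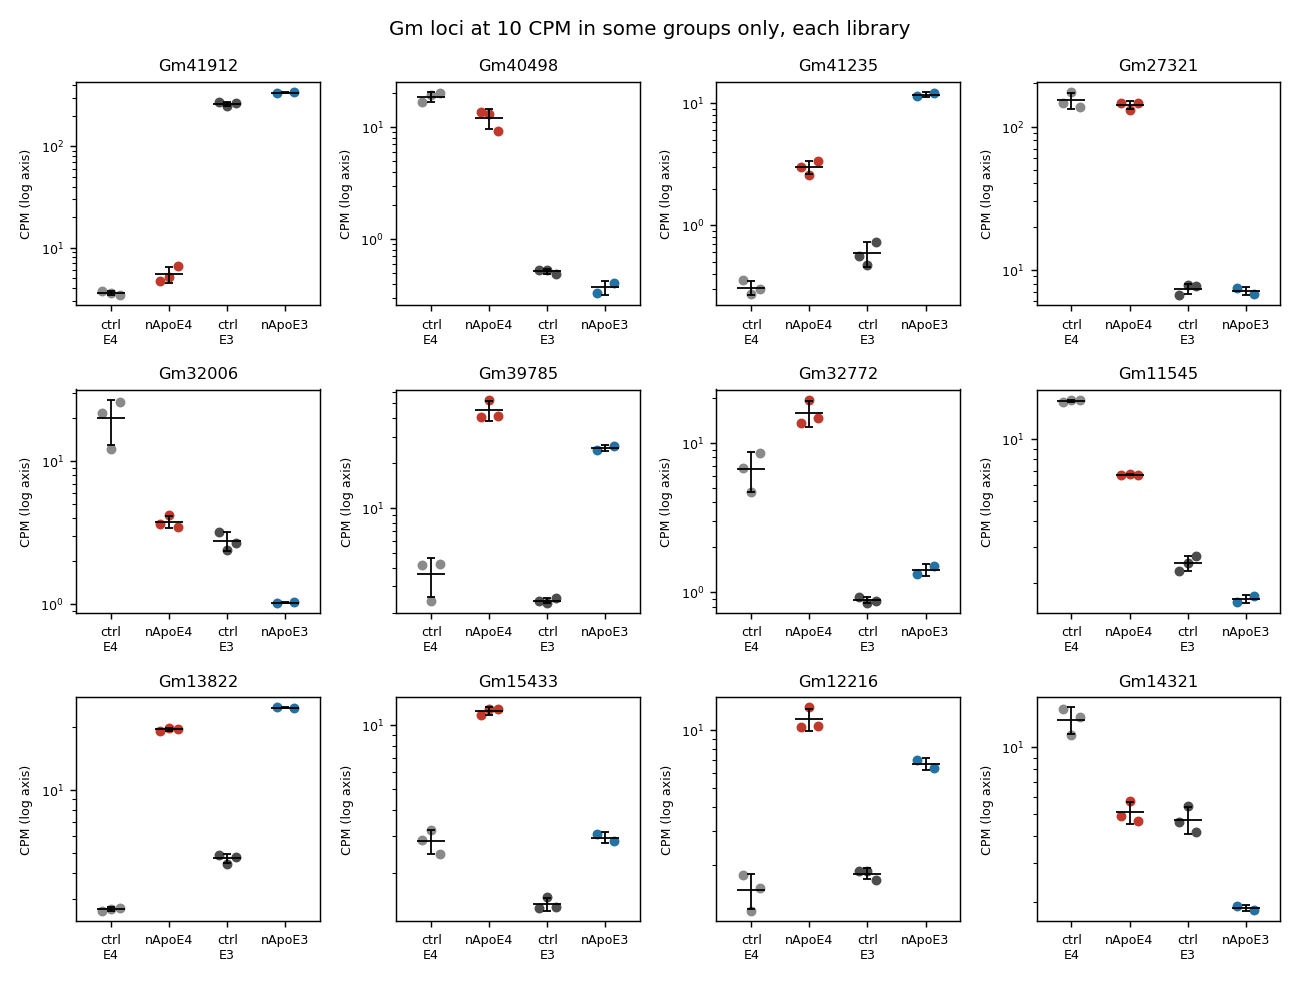
CPM (vertical axes, log) of the 12 Gm loci with the widest range of group means among those at 10 CPM in some groups only, with the untreated controls in grey, nApoE4 in red and nApoE3 in blue. Points are libraries, and black bars are the mean and SD (n = 3, 3, 3 and 2). Gm41912, Gm40498 and Gm27321 split by experiment, while Gm39785, Gm13822 and Gm12216 split by treatment.

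The annotation was then used to set each locus beside its neighbours. Of the 90 loci with a position, 26 overlapped the span of another listed gene, and 62 had a nearest listed gene within 50 kb that was tested in the comparisons and reached 1 CPM in some group. Over these 62 pairs the log2 fold changes of the locus and the gene had a Spearman's rho of 0.373 with nApoE4 and 0.449 with nApoE3, and the same sign in 38 and 42 pairs. Between the untreated groups rho was 0.176, with the same sign in 31 pairs. Both values of a pair come from the same libraries. In overlapping pairs, reads that fell on both genes were counted on neither, and without the strand setting the rest may be counted on the wrong gene. These values are therefore descriptions.

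**Figure D5:**
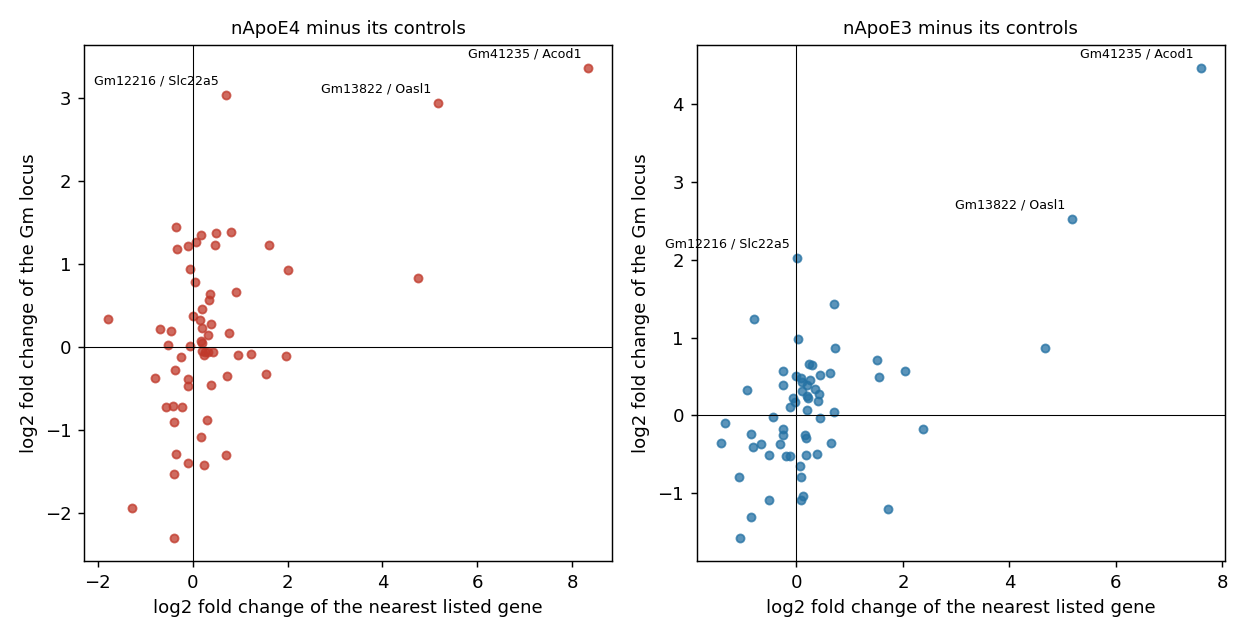
Log2 fold change of the nearest listed gene (horizontal axes) and of the Gm locus (vertical axes) for loci with such a gene within 50 kb, with nApoE4 on the left and nApoE3 on the right. Each point is 1 pair. Gm41235 with Acod1 and Gm13822 with Oasl1 lie at the upper right in both panels, while Gm12216 is high beside a gene, Slc22a5, whose log2 fold change was at most 0.70.

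In 3 cases, picked after the values were seen, a locus that was higher in treated cells lay beside a gene known from the response to microbes and interferon. Gm41235 overlaps Acod1, whose enzyme makes the macrophage metabolite itaconate. Acod1 went from 8.41 to 2560 CPM with nApoE4 and from 8.14 to 1420 CPM with nApoE3. Without the strand setting of the counting, reads of this pair cannot be told apart. Gm13822 gave 2.64, 2.69 and 2.73 CPM untreated and 19.0, 19.8 and 19.5 CPM with nApoE4, and 4.87, 4.43 and 4.78 CPM untreated and 24.7 and 24.6 CPM with nApoE3. It lies 882 bases from Oasl1, an interferon-induced gene of the oligoadenylate synthetase-like family, which rose by 5.18 with each fragment on the log2 scale. Gm12216 gave 1.76, 1.15 and 1.52 CPM untreated and 10.4, 13.1 and 10.5 CPM with nApoE4, and 1.86, 1.87 and 1.67 CPM untreated and 7.02 and 6.32 CPM with nApoE3. It lies 7115 bases from Irf1, an interferon-regulated transcription factor gene that rose by 3.71 and 2.44. On its other side Slc22a5, the carnitine transporter gene 5286 bases away, rose by 0.70 with nApoE4 and had a log2 fold change of 0.01 with nApoE3. Other pairs of this kind went apart. Gm15800 (Hectd4) had log2 fold changes of −0.11 and −0.18, of which only the second passed, and lies 3148 bases from Trafd1, an interferon-induced gene that rose by 1.96 and 2.37. Gm11110 overlaps Tnfsf9, a TNF superfamily ligand gene that rose by 1.55 with nApoE4, and was itself at 10.4 to 12.3 CPM untreated and 7.42 to 9.17 CPM with that fragment.

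The start regions of these loci were read from RefSeq (GRCm38.p6), as windows of 250 bases before and 50 after the annotated start, for 73 of the 100 loci. Both strands were searched for GAAA, any 2 letters and GAAA, named for the interferon response, for GGG, any 2 letters and TTTCC, named for NF-κB, for TTCNNNGAA, named for STAT factors, and for TGANTCA, named for AP-1. The interferon motif was found in 7 of the 73 loci (9.59%) and in 3.99% of all 27025 genes with a window. The shares for the NF-κB, STAT and AP-1 motifs were 1.37, 5.48 and 8.22% of the loci and 1.89, 9.55 and 8.97% of all genes. The 7 loci with the interferon motif were Gm12216, Gm15834, Gm31718, Gm32772, Gm33370, Gm4944 and Gm7072. A match describes the letters and is not evidence of binding.

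The windows are shown for 2 loci beside interferon-related genes and for 2 lncRNAs that moved in opposite directions with both fragments, Gm34181, which rose, and Gm33370, which fell and has 2 annotated starts. Each runs 5′ to 3′ along the strand of the locus, with motif matches in capitals. In Gm12216 the matches are the AP-1 motif at position −181, the interferon motif on the opposite strand at 3, and the STAT motif at 31, counted from the start with no position 0, and none overlaps another. In Gm33370 the AP-1 motif stands at −235 in one window and the interferon motif at −15 in the other. The windows of Gm13822 and Gm34181 held none of the 4 motifs.
Gm12216, chr11:53859207-53859506, minus strand: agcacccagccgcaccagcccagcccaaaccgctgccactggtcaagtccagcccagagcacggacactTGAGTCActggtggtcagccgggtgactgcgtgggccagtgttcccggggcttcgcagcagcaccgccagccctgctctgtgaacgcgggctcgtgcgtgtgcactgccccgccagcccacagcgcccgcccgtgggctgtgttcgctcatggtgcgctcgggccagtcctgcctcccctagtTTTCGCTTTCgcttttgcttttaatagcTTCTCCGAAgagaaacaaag
Gm13822, chr5:114922212-114922511, minus strand: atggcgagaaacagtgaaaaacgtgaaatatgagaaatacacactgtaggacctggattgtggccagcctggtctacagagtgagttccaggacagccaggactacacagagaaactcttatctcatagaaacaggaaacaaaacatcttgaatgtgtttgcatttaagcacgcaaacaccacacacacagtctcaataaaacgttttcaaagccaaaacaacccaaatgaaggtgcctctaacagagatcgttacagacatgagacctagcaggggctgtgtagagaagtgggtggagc
Gm34181, chr2:144337194-144337493, plus strand: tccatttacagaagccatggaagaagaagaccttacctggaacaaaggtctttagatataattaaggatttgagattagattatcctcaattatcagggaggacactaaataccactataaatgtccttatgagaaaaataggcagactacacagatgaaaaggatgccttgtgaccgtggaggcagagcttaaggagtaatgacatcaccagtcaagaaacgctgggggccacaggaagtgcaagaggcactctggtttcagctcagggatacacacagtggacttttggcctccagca
Gm33370, chr5:96922100-96922399, minus strand: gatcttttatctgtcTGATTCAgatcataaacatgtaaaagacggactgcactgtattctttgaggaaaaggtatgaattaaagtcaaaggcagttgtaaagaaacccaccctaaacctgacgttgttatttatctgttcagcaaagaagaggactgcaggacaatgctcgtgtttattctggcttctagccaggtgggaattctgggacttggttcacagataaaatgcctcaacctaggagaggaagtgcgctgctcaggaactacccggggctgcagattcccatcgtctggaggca
Gm33370, chr5:96921186-96921485, minus strand: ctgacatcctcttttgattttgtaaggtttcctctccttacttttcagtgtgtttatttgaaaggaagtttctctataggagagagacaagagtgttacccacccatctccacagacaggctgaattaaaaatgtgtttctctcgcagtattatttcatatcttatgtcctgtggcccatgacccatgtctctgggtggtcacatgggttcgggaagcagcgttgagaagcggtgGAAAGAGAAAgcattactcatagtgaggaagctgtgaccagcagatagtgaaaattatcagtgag

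Other classes of loci were compared with the same tests. The 10 CPM level was reached by 232 of 2258 loci with Rik symbols (10.3%), by 29 of 1994 with LOC symbols (1.45%) and by 9011 of 22364 other genes (40.3%), beside 1.01% of Gm loci. Of the 232 Rik loci, 149 passed after nApoE4 and 174 after nApoE3, and of the 29 LOC loci 21 and 25 passed. These Rik and LOC loci needed to reach 10 CPM in some group only, so their choice helped to set these counts. The counts are a description and are not compared with the shares of all genes. Among lncRNA genes that carry a name, 20 of 34 tested passed after nApoE4, 14 higher and 6 lower, and 24 of 35 after nApoE3, 17 higher and 7 lower. Their median log2 fold changes were 0.19 and 0.12. Mir155hg, the host transcript of the inflammatory microRNA miR-155, rose from 0.569 to 36.4 CPM with nApoE4 and from 0.0703 to 6.27 CPM with nApoE3. Neat1, the scaffold of nuclear paraspeckles, rose by 0.57 and 0.21, and Mir17hg fell by 0.61 and 0.23. Of the cytosolic ribosomal protein genes, 2 of 82 passed after nApoE4, or 21 of 82 without untreated replicate 2, and 53 of 82 passed after nApoE3, 49 of them higher. Of all genes tested, 57.2% and 67.7% passed. The median log2 fold change of the ribosomal protein genes after nApoE3 was only 0.09, small enough to depend on the scaling of libraries. The estimated coefficient of variation between replicates was 0.026 in the nApoE3 fit and 0.084 in the nApoE4 fit, so smaller changes could pass with nApoE3.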

How the data were processed

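RNA from 11 BV2 samples was sequenced by the authors as single-end reads, trimmed with Trim Galore 0.5.0, checked with FastQC 0.11.8, mapped to GRCm38.p6 with HISAT2 2.1.0 and counted per gene with HTSeq 0.11.0. The deposited values are raw read counts per gene symbol, with no normalization. The annotation release, strand setting and overlap mode of the counting are not given in the sources used here. The tallies of reads not assigned to a gene, 22.3 to 24.0% of all tallied, stayed out of library sizes and tests.

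Samples were grouped by their labels. CPM was the count divided by the sum of gene rows, and is not scaled for transcript length, so loci are not ranked against each other by level. It carries no TMM factor, while the log2 fold changes do. Over the 11 samples these factors were 0.916 and 0.923 with nApoE3 and 1.01 in each of its controls. Small log2 rises with nApoE3 can therefore stand beside flat or lower CPM. Tests used edgeR 4.0.16 in R 4.3.3 (filterByExpr, TMM, quasi-likelihood F test, Benjamini-Hochberg adjustment over all genes tested), with each fragment against its own controls, an interaction over the 11 samples, and the control groups against each other. Standard errors were derived from the F statistic, as |log2 fold change| over its square root. The fits were tested on simulated data. The alternatives were DESeq2 1.42.0, its size factors, other filters, a joint fit, a replicate block, other levels and leaving out each replicate. The floor of 3 counts covers counting error only, while the standard errors also hold the spread between replicates. The depth of 39732710 to 69768666 counts makes counting error small at 10 CPM.

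The 100 loci and the gene lists were chosen with earlier results of these data known. Loci named in the text were the 8 with the highest mean, those with the largest called changes among the 35 (5 per direction for each fragment, 4 per direction otherwise), the 12 with the widest range among the rest, those next to the threshold, the neighbours of these and loci with a named product. Gm42362, Gm17066, Gm17399, the loci past the threshold with neither fragment and those with an interferon motif fall outside this rule and were named after their values were seen. Positions were taken from RefSeq and GENCODE M21. No pair of libraries held identical values. Labels share replicate numbers between groups, and correlations of same-numbered samples, as deviations from their group means, ran from −0.352 to −0.00372. They gave no sign of pairing, but with so few samples in a group they cannot exclude it. The main tests did not pair samples.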

Additional observations from a re-analysis of the deposited data

Results flagged for a closer look

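Among the 35 loci at 10 CPM or more in all 4 groups, 11 were taken up here because the interaction of fragment and treatment passed an adjusted p under 0.05 in edgeR (nApoE4 response minus nApoE3 response, log2). The largest differences were those of Gm8995 at −1.42 (SE 0.15, adjusted p = 1.84e-05) and Gm6377 at −0.94 (SE 0.15, adjusted p = 3.71e-04). Gm8995 rose in 3 of 3 and 2 of 2 treated samples, and Gm6377 was lower in 3 of 3 samples given nApoE4 and higher in 2 of 2 given nApoE3. Gm33370 differed by −0.68 (SE 0.08, adjusted p = 3.16e-05), Gm572 by −0.38 (SE 0.08, adjusted p = 0.00404) and Gm39840 by −0.34 (SE 0.08, adjusted p = 0.00797), each with the larger fall after nApoE4. Gm32856 differed by 0.84 (SE 0.12, adjusted p = 1.99e-04) and Gm14325 by 0.44 (SE 0.10, adjusted p = 0.00644), each with the larger rise after nApoE4. Gm33989 differed by 0.57 (SE 0.13, adjusted p = 0.00577) and Gm14326 by 0.44 (SE 0.14, adjusted p = 0.0275), each with a fall after nApoE3 that passed and values after nApoE4 that did not. Gm34181 differed by −0.25 (SE 0.08, adjusted p = 0.0359) and Gm38434 by −0.38 (SE 0.13, adjusted p = 0.0386). The last pair and Gm14326 lost the call when 1 sample was left out, for Gm14326 in 5 of the 11 cases, with adjusted p from 0.0529 to 0.108. The fragments were given in separate experiments, so in these differences an effect of the fragment cannot be told apart from one of the experiment.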

How the results depend on the processing

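No called value changed direction under any alternative run. A level of 5 CPM gave 212 loci, 20 CPM gave 41, and 10 CPM in both untreated groups gave 42. The loci past the threshold then numbered 144, 21 and 20 after nApoE4, 161, 33 and 33 after nApoE3, 82, 11 and 15 for the interaction, and 165, 34 and 30 between the controls. With a mean of the 4 group means of 10 CPM or more, chosen after seeing the data, 31 of 59 passed after nApoE4 (19 higher, 12 lower), 44 after nApoE3 (29 higher), 19 for the interaction (8 higher, 11 lower) and 49 between the controls (28 higher, 21 lower). Among the 64 loci whose span overlaps no other listed gene, also chosen later, 35, 49 and 55 passed after nApoE4, after nApoE3 and between the controls, and of the loci at the level in all 4 groups 3 were lower after nApoE4 and 7 after nApoE3.

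Leaving out each replicate in turn gave 62 to 69 of the 100 loci after nApoE4, 73 to 78 after nApoE3, 29 to 48 for the interaction and 77 to 88 between the controls. Of the 35 loci it gave 8 to 10 higher and 7 to 8 lower, 15 to 18 higher and 11 to 12 lower, 3 to 5 higher and 5 to 8 lower, and 16 to 20 higher and 7 to 10 lower, in the same order. The median log2 fold change of the 100 loci ran from −0.0017 to 0.0951 after nApoE4, from 0.0864 to 0.149 after nApoE3, from −0.0455 to 0.0270 for the interaction and from −0.0130 to 0.0894 between the controls. These medians lie near 0, and no direction is read from them. Of the named loci at the level in all 4 groups, the nApoE4 call of Gm12610 was lost without treated replicate 2 and the nApoE3 call of Gm30215 without treated replicate 1. Between the controls, Gm12610 was lost in 5 cases and Gm39840 in 1, without untreated replicate 2 of the nApoE3 experiment. The interaction calls lost are given with those results. In a joint fit of all samples the nApoE3 calls of Gm12610, Gm12942, Gm15800, Gm17382 and Gm30215 were lost, and DESeq2 also lost those of Gm12942 and Gm30215.

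With the replicate number as a block, 65 of the 100 loci passed after nApoE4, 80 after nApoE3 and 26, in place of 39, for the interaction, and 4 of the 35, in place of 7, were lower for the interaction. The interaction calls of Gm34181, Gm38434, Gm14326 and Gm39840 were lost under the block. No paired analysis was possible between the controls because they belong to separate experiments.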

Other observations

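Gm loci below the level of the 100 were also measured. Of 9813 such loci, 1116 could be tested after nApoE4, of which 321 rose and 222 fell, and 1266 after nApoE3, of which 372 rose and 189 fell. These calls were 48.7% and 44.3% of the loci tested, beside 57.2% and 67.7% of all genes tested. A locus near the floor could pass the filter for testing through the group where it is high. The values below therefore do not describe all 9813 loci. Among the loci tested, the median log2 fold changes were 0.16 and 0.18, where those of all genes were 0.0013 and −0.0026. One locus below the level, Gm41236, lies 11214 bases from Gm41235, on the side away from the uncharacterised lncRNA 4933432I03Rik. It went from 0.00755 to 5.53 CPM with nApoE4 and from 0.0108 to 4.02 CPM with nApoE3. These untreated means are below the level of 3 counts in a library. The lncRNA Gm34657, 5206 bases from Gm13657, had a mean of 0.188 CPM untreated and 0.923 CPM with nApoE4. In the second experiment its means were 0.107 CPM untreated and 0.834 CPM with nApoE3. Another lncRNA, Gm34861, lies 22741 bases from Gm13657 and did not rise. It went from 2.02 to 1.75 CPM with nApoE4 (log2 fold change −0.11, not past the threshold). With nApoE3 it fell from 1.51 to 0.794 CPM (log2 fold change −0.80, edgeR adjusted p = 0.00274). Gm41236 and Gm34657 were named after their values were seen.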
